A study of Mus musculus with 17 samples.

Results

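The comparison asked which transcripts changed to a different extent in MBNL1 knockout (KO) and wild-type (WT) heart muscle cells during 8 h of a transcription block, and it rested on 12 of the 17 libraries of the study. These were KO at 8 h, KO at 0 h, WT at 8 h and WT at 0 h, with 3 libraries each, taken by their labels; KO and WT libraries at 4 h, 3 and 2 in number, shared in the estimate of the spread and are given as levels only. All libraries came from ventricular myocytes of adult mice aged P60 (postnatal day 60), released from the heart by enzyme perfusion, plated on laminin for 3 h and then placed in medium with 2 µg/mL actinomycin D, which blocks transcription; the 0 h libraries are the baseline of that treatment. The KO mice are labelled MBNL1 loss-of-function and the WT mice control. The sources used here give no allele, deleted part of the gene, driver line or sex of the mice.

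Muscleblind proteins bind short GC-centred motifs in RNA and act on splicing, on localisation and, through 3′ untranslated regions, on the stability of transcripts. In the heart, MBNL1 rises after birth and is known for its part in the switch from fetal to adult transcript forms. When transcription is blocked, the level of a transcript falls with its decay, so that a short-lived RNA is soon depleted while a long-lived one holds its level and takes a growing share of the RNA that is left.

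For each gene the interaction was the log2 change of KO from 0 to 8 h minus that of WT. A positive value means that the transcript held its level better, or gained more, in KO than in WT. Levels are CPM, the counts of a gene scaled to a common library total after TMM factors had adjusted that total. These factors ran from 0.904 in a KO library at 8 h to 1.19 in a WT library at 0 h, so CPM are not plain shares of a library. Every change is still a relative one, and a gene that rose during the block rose relative to other transcripts. No library at 8 h without actinomycin D was analysed here, so decay and time in culture cannot be told apart. The interaction, its 2 time courses and the baseline difference share libraries and are not independent of each other. Whether the replicates were different animals is not in the labels, and p-values cover only the spread between samples, which may be technical.

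The 12 libraries held 17059736 to 17971617 counts each, and mitochondrially encoded genes took 35.1 to 43.3% of the counts. Cardiomyocyte markers (12 genes, among them the troponin and myosin genes Tnnt2 and Myl2) summed to 52700 to 91900 CPM over the libraries, with no marker at 0. Transcripts of other cells of the heart were also present. In the KO libraries at 8 h, KO at 0 h, WT at 8 h and WT at 0 h the 28 endothelial markers summed to means of 184, 567, 185 and 670 CPM, the 22 fibroblast and matrix markers to 134, 178, 142 and 221 CPM, and 25 of the 26 macrophage and leukocyte markers to 45.1, 68.6, 38 and 164 CPM. In such bulk samples, fewer cells of a type and less RNA per cell cannot be told apart.

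Mbnl1, on the forward strand of chromosome 3 (60472830 to 60629750 on GRCm38, ENSMUSG00000027763), was not called in the interaction or in either time course. It stood at 104 ± 3.03 CPM at 8 h and 100 ± 5.36 CPM at 0 h in KO libraries, and at 86.8 ± 1.23 CPM at 8 h and 87.5 ± 1.3 CPM at 0 h in WT libraries (SD, n = 3 each). The interaction was 0.06 ± 0.07 (SE, edgeR adjusted p = 0.683). KO was above WT by 0.19 ± 0.05 at 0 h (adjusted p = 8.11e-04) and by 0.26 ± 0.05 at 8 h (adjusted p = 2.13e-05). Counts per gene do not show a deletion inside a gene, so these counts do not check the genotype and the groups are named as labelled. Its paralogue Mbnl2 had an interaction of 0.15 ± 0.07 (SE, adjusted p = 0.235). With scaling by ribosomal protein counts both were called, at 0.34 for Mbnl1 (adjusted p = 0.0101) and 0.42 for Mbnl2 (adjusted p = 0.00329); over all alternatives their adjusted p ran from 0.0101 to 0.932 and from 0.00329 to 0.575.

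Because MBNL proteins act through such motifs, a window of 30 bases from the 3′ untranslated region is shown for 3 protein-coding genes at each end of the interaction, the highest and the lowest of those described here that were called and had a mean log2 CPM of at least 3. Each window is the one that holds the most copies of TGCT, CGCT or GCTT on the sense strand, and capitals mark those letters, overlapping copies included. The sequences are those of GENCODE M21 transcripts on GRCm38, written 5′ to 3′.
Lyz2, chr10:117278091-117278120, reverse strand: ccgcggtgTGCTTctactgcagctcattcg
Tie1, chr4:118471474-118471503, reverse strand: cctggctcTGCTggccggagcaaatTGCTT
H2-D1, chr17:35267053-35267082, forward strand: gtgttcccttccatagccaacctTGCTGCT
Icam1, chr9:21027974-21028003, forward strand: ccccctgcagggcaacagcTGCTGCTGCTT
Hmox1, chr8:75100095-75100124, forward strand: ctctcttctcttgggcctctaagaaaGCTT
Rpl26, chr11:68904500-68904529, forward strand: ctcgtgcacgGCTTtcattaaagacTGCTT
A window with at least 4 copies, as in Icam1, occurred in 23.9% of the 11909 3′ untranslated regions long enough to search, at least 3 copies (Tie1, Rpl26) in 54.7%, at least 2 (Lyz2, H2-D1) in 83.1% and at least 1 (Hmox1) in 94.9%. The whole region held 10 copies in 790 bases in Lyz2, 14 in 871 bases in Icam1 and 2 in 570 bases in Hmox1. Such matches are common and describe these regions only; they are not binding sites.

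Of 13230 tested genes, 688 (5.2%) had an interaction at an adjusted p under 0.05 by edgeR's quasi-likelihood F test, 248 (1.87%) of them higher and 440 (3.33%) lower in KO. Among those called higher were 16 of 24 macrophage and leukocyte genes, 7 of 35 immediate early genes and 3 of 28 endothelial genes. Genes of cytosolic ribosomes, sarcomeres, mitochondria and the proteasome were among those called lower. In all 688 called genes the changes of the 3 KO libraries at 8 h did not overlap those of the 3 WT libraries. Over all tested genes the KO changes lay wholly above in 15.3% and wholly below in 19.7%. The calls were made on these same libraries and favour such separation, so it is no further evidence for them. Each change is taken from the 0 h mean of its genotype, so the spread at 0 h is not shown. The count in each direction depended on how libraries were scaled, since the median interaction of all genes was -0.02 with TMM, 0.09 when scaled to library size alone, and 0.26 when scaled to ribosomal protein counts. Library size alone gave 564 higher and 132 lower calls, and ribosomal protein scaling 2915 and 44. Of the 248 higher calls, 212 were called higher under each of 5 scalings, and of the 440 lower calls 38 were called lower under each.

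**Figure D1:**
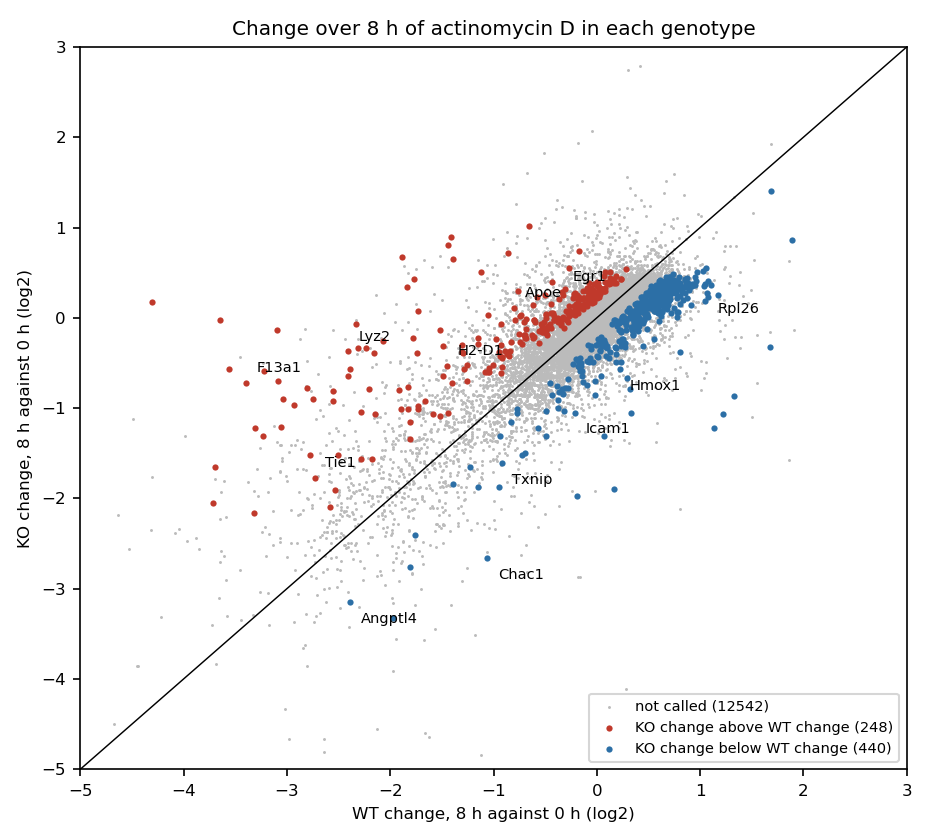
Log2 change from 0 to 8 h in KO (vertical axis) against that in WT (horizontal axis) for the tested genes; red points are the 248 genes called higher in the interaction, blue points the 440 called lower, grey points the 12542 others, and 9 genes lie outside the axes. Red points reach far to the left, where WT fell most, and blue points gather to the right of 0, where WT gained.

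The genes called higher were mostly genes that fell in WT. The interaction subtracts the WT change from the KO change, so choosing genes by it favours such a pattern. The counts below therefore describe the called genes only. Their median change was -0.01 in KO against -0.52 in WT, and 187 of the 248 were called lower in the WT course while 71 were called lower in the KO course. Over all tested genes 26.8% were called lower in the WT course and 23.2% in the KO course, so the KO count was near the background; in either direction the shares were 44.6% in KO and 51.9% in WT. By sign alone, 126 of them had changes below 0 in both genotypes, 91 were above 0 in KO and below 0 in WT, and 31 were above 0 in both. At 0 h their median KO level lay below that of WT, at -0.29 on the log2 scale, with 155 called lower and 13 higher, beside 36.7% of all tested genes called in either direction; at 8 h the median difference was 0.22.

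The genes called lower were mostly genes that gained in WT. Choosing genes by the interaction favours this pattern too, so the counts are likewise descriptive. Their median change was 0.15 in KO against 0.54 in WT, and 353 of the 440 were called higher in the WT course while 214 were called higher in the KO course, where all tested genes gave 25% in WT and 21.4% in KO. By sign, 298 were above 0 in both genotypes, 84 below 0 in KO and above 0 in WT, and 58 below 0 in both. At 0 h their median KO level lay above that of WT by 0.37, with 360 called higher and 9 lower, beside 18.8% and 17.9% of all tested genes, and at 8 h the median difference was -0.01. Here too the choice of genes by the interaction favours this direction at 0 h. The other 12542 genes had median changes of -0.02 in KO and -0.04 in WT.

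Macrophage and leukocyte genes had the highest list median of the 34 lists. Of 24 tested members of that list 16 were called higher and none lower, against 1.87% and 3.33% of all tested genes, with a list median of 1.49 beside -0.02 over all genes. Their median change over 8 h was -0.61 in KO against -2.37 in WT, and their median baseline difference was -1.33. The 8 members not called ranged from 2.07 for Pf4 (adjusted p = 0.0728) to 0.06 for Ctsb (adjusted p = 0.604), a lysosomal protease gene that many cells express. The list median stayed above 0 under all 5 scalings, from 1.47 to 1.77. DESeq2 gave no adjusted p for 21 of the 24 genes and called 2 higher.

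Lyz2, the lysozyme gene of macrophages and neutrophils (ENSMUSG00000069516, chromosome 10, 117277331 to 117282321, reverse strand), led the genes above a mean log2 CPM of 3. It measured 9.24, 5.84 and 7.33 CPM at 8 h and 9.52, 8.88 and 10.6 CPM at 0 h in KO libraries, against 5.09, 5.84 and 4.98 CPM at 8 h and 27.8, 30.3 and 26.8 CPM at 0 h in WT libraries. WT libraries at 0 h stood far above all others, while at 8 h the lowest KO library equalled the highest WT library. At 8 h the mean was 77.4% of baseline in KO and 18.7% in WT, for an interaction of 2.05 ± 0.16 (SE, adjusted p = 8.35e-15). The baseline difference was -1.55 ± 0.09 (adjusted p = 6.51e-22) and that at 8 h 0.50 ± 0.13 (adjusted p = 0.00205), so the order of the genotypes changed during the block. At 4 h the means were 9.11 CPM in KO and 10.4 CPM in WT.

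F13a1, which encodes the A chain of coagulation factor XIII and marks resident macrophages, had a still higher interaction at a lower level. It measured 3.26, 3.48 and 2.64 CPM at 8 h and 5.35, 5.7 and 4.38 CPM at 0 h in KO libraries. WT libraries measured 1.24, 0.973 and 1.17 CPM at 8 h and 10.7, 13.3 and 11.9 CPM at 0 h. The interaction was 2.69 ± 0.24 (SE, adjusted p = 1.08e-12), with 60.8% of baseline kept in KO and 9.43% in WT. Here KO libraries stood below WT libraries at 0 h and above them at 8 h, with no overlap at either time. Adgre1, the F4/80 antigen of macrophages, had an interaction of 2.26 ± 0.43 (SE, adjusted p = 4.09e-04), and its KO course of -0.07 was not called (adjusted p = 0.892) while its WT course was -2.33 (adjusted p = 4.53e-11). Its level was low, with means of 1.02 CPM at 8 h and 1.06 CPM at 0 h in KO and 0.662 and 3.36 CPM in WT. The genotypes overlapped at 8 h, where their difference of 0.61 ± 0.35 was not called (adjusted p = 0.199).

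The complement genes C1qa, C1qb and C1qc had interactions of 1.90, 1.75 and 1.64, and Csf1r, the receptor for macrophage colony-stimulating factor, 1.85. In these 4 genes, named after their values were seen, the WT course ran from -3.06 to -2.24 and the KO course from -1.21 to -0.34. Cd74, the invariant chain of MHC class II, had an interaction of 0.72 ± 0.17 (SE, adjusted p = 0.00658). Its mean was 6.3 CPM at 8 h and 9.38 CPM at 0 h in KO libraries, and 8.17 CPM at 8 h and 20 CPM at 0 h in WT libraries. Unlike Lyz2 and F13a1, it was lower in KO at 8 h as well, at -0.37 ± 0.13 (adjusted p = 0.0322).

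The summed level of these markers depended on 1 gene. Without Ctsb, which made up most of the sum and was left out after its values were seen, it ran over 0, 4 and 8 h through means of 68.6, 60.2 and 45.1 CPM in KO and 164, 70.2 and 38 CPM in WT. With Ctsb the sum of all 26 markers went the other way, through 640, 713 and 804 CPM in KO and 697, 708 and 716 CPM in WT. At 0 h the KO libraries ranged from 64.8 to 71 CPM and the WT libraries from 153 to 178 CPM; at 8 h the ranges were 42.9 to 47.8 CPM in KO and 33.3 to 42.8 CPM in WT. KO was thus below WT at 0 h and above it at 8 h, without overlap at either time, and most of the WT loss came in the first 4 h. Up to 2 of the 25 genes were at 0 in a library. How far the share of macrophages, or its loss from the culture, took part in these interactions was not tested.

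**Figure D2:**
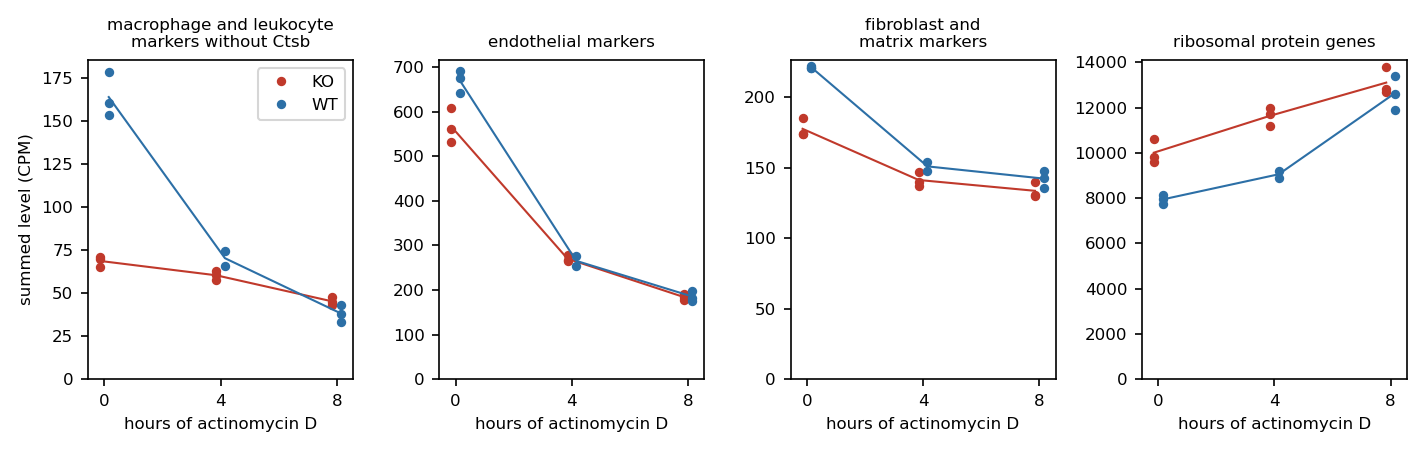
Summed CPM of 25 macrophage and leukocyte markers, 28 endothelial markers, 22 fibroblast and matrix markers and 79 ribosomal protein genes by hours of actinomycin D; points are libraries (KO red, WT blue) and lines join group means. In the macrophage panel WT at 0 h, at 153 to 178 CPM, stands above every other library, while the ribosomal protein sums climb in both genotypes, more steeply after 4 h in WT.

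Endothelial genes fell steeply in both genotypes. Of 28 tested members 27 were called lower in each course, against 23.2% of all tested genes in KO and 26.8% in WT. Their median changes were -2.00 in KO and -2.26 in WT. In the interaction 3 were called higher and none lower, where 1.87% of all tested genes were called higher, with a list median of 0.22. Tie1, a receptor tyrosine kinase of endothelium, measured 4.95, 4.54 and 4.03 CPM at 8 h and 14.4, 15.9 and 15.8 CPM at 0 h in KO libraries, against 4.09, 3.09 and 2.46 CPM at 8 h and 21.7, 22.5 and 19.8 CPM at 0 h in WT libraries. WT was above KO at 0 h without overlap, and the genotypes overlapped at 8 h. It kept 29.3% of its baseline in KO and 15.1% in WT, for an interaction of 0.96 ± 0.18 (SE, adjusted p = 3.16e-04). Vwf, the von Willebrand factor gene, had an interaction of 0.74 ± 0.17 (adjusted p = 0.00284) and Robo4, a guidance receptor of endothelium, 0.73 ± 0.21 (adjusted p = 0.0272), the last named after its values were seen.

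S1pr1, the sphingosine-1-phosphate receptor of endothelium and lymphocytes, differed from most of these genes in that KO was the higher genotype at both times. It measured 9.24, 10.3 and 10.5 CPM at 8 h and 19.9, 22.3 and 18.2 CPM at 0 h in KO libraries, against 5.45, 4.75 and 4.86 CPM at 8 h and 17, 16.1 and 17 CPM at 0 h in WT libraries. KO libraries lay above WT libraries at 0 h and, by a wider margin, at 8 h. The interaction was 0.73 ± 0.14 (SE, adjusted p = 5.15e-04). Cd93, a surface glycoprotein of endothelium and myeloid cells, and Ltbp4, which binds latent TGF-beta, had interactions of 0.64 ± 0.18 (adjusted p = 0.0193) and 0.61 ± 0.14 (adjusted p = 0.00487). Cd93 was not called without KO replicate 1 at 8 h or without WT replicate 3 at 8 h, where its adjusted p reached 0.11; over all alternatives it began at 3.74e-04.

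Fibroblast and pericyte lists gave 1 call each, where 5.2% of all tested genes were called in either direction. Of 21 tested fibroblast and matrix genes 1 was called higher, Sparc, a collagen-binding matrix protein gene, at 0.43 ± 0.08 (SE, adjusted p = 3.09e-04), and none lower. Of 11 pericyte and smooth muscle genes none was called higher and 1 lower, the smooth muscle myosin gene Myh11, at -0.63 ± 0.19 (adjusted p = 0.031). Myh11 lost its call without KO replicate 3 at 0 h, KO replicate 2 at 8 h, WT replicate 1 at 0 h or WT replicate 1 at 8 h, as well as with library size alone, ribosomal protein scaling, no filter and DESeq2; its adjusted p ran from 0.0213 to 0.183.

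Among 28 tested interferon and class I histocompatibility genes 4 were called higher and 2 lower, against 1.87% and 3.33% of all tested genes, with a median of 0.08. H2-D1, which encodes a class I heavy chain (ENSMUSG00000073411, chromosome 17, 35262730 to 35267499, forward strand), measured 20.4, 20.4 and 20.9 CPM at 8 h and 28.3, 29 and 31.4 CPM at 0 h in KO libraries. WT libraries measured 12.4, 12.1 and 11.1 CPM at 8 h and 33.4, 32.9 and 31.1 CPM at 0 h. The genotypes overlapped at 0 h, where their difference was -0.13 ± 0.07 (SE, adjusted p = 0.109), and were apart at 8 h. With 69.4% of baseline kept in KO and 36.5% in WT, the interaction was 0.93 ± 0.10 (SE, adjusted p = 1.64e-09). Class I genes have near-identical copies, and the handling of reads with several positions is not stated in the labels. The other higher calls were Ly6e at 0.48, B2m, the light chain of class I molecules, at 0.47 and the heavy chain gene H2-K1 at 0.41, the last pair named after their values were seen. Ly6e lost its call when 8 of the 12 libraries were each left out, with TMM without mitochondrial genes and with DESeq2. Its adjusted p ran from 8.02e-04 to 0.127 over all alternatives. The interferon-induced gene Ifit2 was called lower at -0.71 ± 0.16 (adjusted p = 0.00304), though not with ribosomal protein scaling (adjusted p from 0.00201 to 0.0631 over all alternatives).

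Apoe, the apolipoprotein E gene, fell in WT and was not called in the KO course (ENSMUSG00000002985, chromosome 7, 19696109 to 19699188, reverse strand). KO libraries measured 29.1, 30.1 and 30.4 CPM at 8 h and 26, 26.3 and 30.5 CPM at 0 h. WT libraries measured 15.1, 15.6 and 17.3 CPM at 8 h and 28.4, 29.3 and 26 CPM at 0 h. The genotypes overlapped at 0 h, at a difference of -0.02 ± 0.07 (SE, adjusted p = 0.888), and at 8 h every KO library was above every WT library. The KO course was 0.11 ± 0.07 (adjusted p = 0.182), the WT course -0.80 ± 0.07 (adjusted p = 8.07e-15) and the interaction 0.92 ± 0.10 (adjusted p = 9.9e-10). WT was already at 15.5 CPM at 4 h, when KO stood at 27.3 CPM. Macrophages express Apoe strongly, and the macrophage markers summed above without Ctsb moved with genotype and time; their part in this result was not tested.

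**Figure D3:**
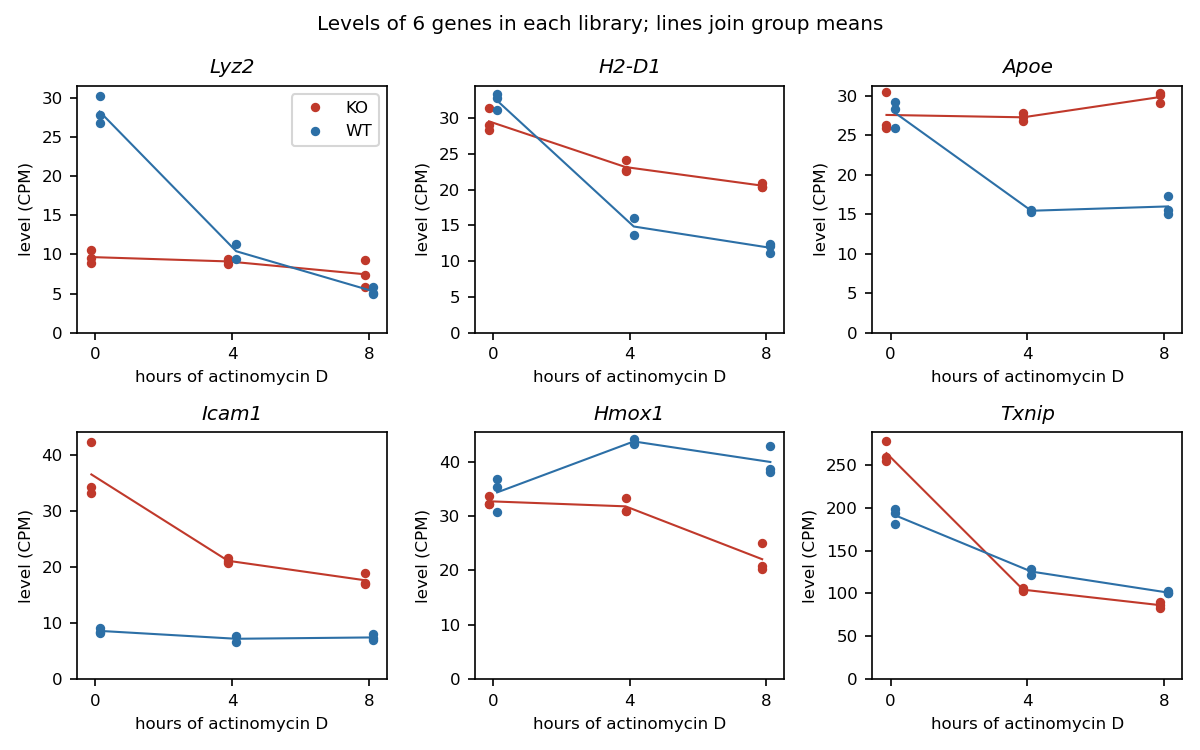
Level in CPM of Lyz2, H2-D1, Apoe, Icam1, Hmox1 and Txnip by hours of actinomycin D; points are libraries (KO red, WT blue) and lines join group means. The lines of Lyz2, H2-D1 and Txnip cross, Apoe and Hmox1 start together and part, and Icam1 approaches WT from a higher start.

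Immediate early genes, whose transcripts are known to decay within minutes to hours, gave calls in both directions. Of 35 tested members 7 were called higher and 2 lower, against 1.87% and 3.33% of all tested genes, and the median interaction was 0.03. At baseline 31 of the 35 were called lower in KO, against 17.9% of all tested genes. Zfp36 encodes tristetraprolin, a protein that binds AU-rich elements and recruits deadenylases. It measured 15.3, 14.2 and 14.6 CPM at 8 h and 21.7, 23 and 24.9 CPM at 0 h in KO libraries, against 14.8, 15.7 and 12.9 CPM at 8 h and 40.7, 42.1 and 39.8 CPM at 0 h in WT libraries. WT was the higher genotype at 0 h, with no overlap, and the genotypes overlapped at 8 h, at a difference of 0.02 ± 0.08 (SE, adjusted p = 0.879). The interaction was 0.84 ± 0.11 (SE, adjusted p = 5.26e-08), and reads of the antisense gene Gm44710 that overlaps it cannot be told apart unless counting used strand.

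Egr1, a zinc finger factor of the early growth response, moved in opposite directions in the genotypes. KO libraries measured 119, 129 and 129 CPM at 8 h and 101, 102 and 105 CPM at 0 h. WT libraries measured 144, 149 and 141 CPM at 8 h and 183, 198 and 171 CPM at 0 h. KO libraries stayed below WT libraries at both times and the gap narrowed, with a KO course of 0.29 ± 0.05 (SE, adjusted p = 9.91e-07), a WT course of -0.34 ± 0.05 (adjusted p = 5.86e-09) and an interaction of 0.64 ± 0.07 (adjusted p = 4.56e-10). Gadd45g, a growth arrest gene, had an interaction of 0.76 ± 0.15 (adjusted p = 5.95e-04) and Btg2, an antiproliferative partner of the CCR4-NOT deadenylase, 0.48 ± 0.09 (adjusted p = 2.96e-04); both were lower in KO at 0 h, at -0.87 each. The 2 members called lower were Mafk, at -0.51 ± 0.10 (adjusted p = 9.01e-04), and Klf2, at -0.95 ± 0.27 (adjusted p = 0.0262). Klf2 lost its call when 6 of the 12 libraries were each left out, and with library size alone or ribosomal protein scaling, with adjusted p from 0.0158 to 0.107; Mafk lost it with ribosomal protein scaling, with adjusted p from 2.16e-04 to 0.159.

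The other genes at the high end were of mixed function. Nme2, a nucleoside diphosphate kinase gene, measured 16.1, 16.5 and 19.6 CPM at 8 h and 12.3, 10.4 and 12.8 CPM at 0 h in KO libraries, against 17.2, 15 and 16.5 CPM at 8 h and 18.6, 19.3 and 20.8 CPM at 0 h in WT libraries. Its levels met at 8 h after KO gained and WT lost, for an interaction of 0.82 ± 0.12 (SE, adjusted p = 3.07e-06), and it overlaps Gm20390, a protein-coding gene on the same strand. Airn, a noncoding RNA of the imprinted Igf2r locus that overlaps Igf2r on the opposite strand, had an interaction of 0.68 ± 0.15 (adjusted p = 0.00259). Xpo6, the exportin of actin, rose in KO by 0.32 ± 0.08 (adjusted p = 8.13e-04) and fell in WT by 0.31 on the log2 scale (adjusted p = 5.71e-04), for an interaction of 0.63 ± 0.11 (adjusted p = 1.41e-04). Ago3, an Argonaute gene, reached 0.59 ± 0.16 (adjusted p = 0.0271) and lost its call when 7 of the 12 libraries were each left out, with adjusted p up to 0.108 without KO replicate 2 at 8 h and from 6.07e-05 over all alternatives.

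**Figure D4:**
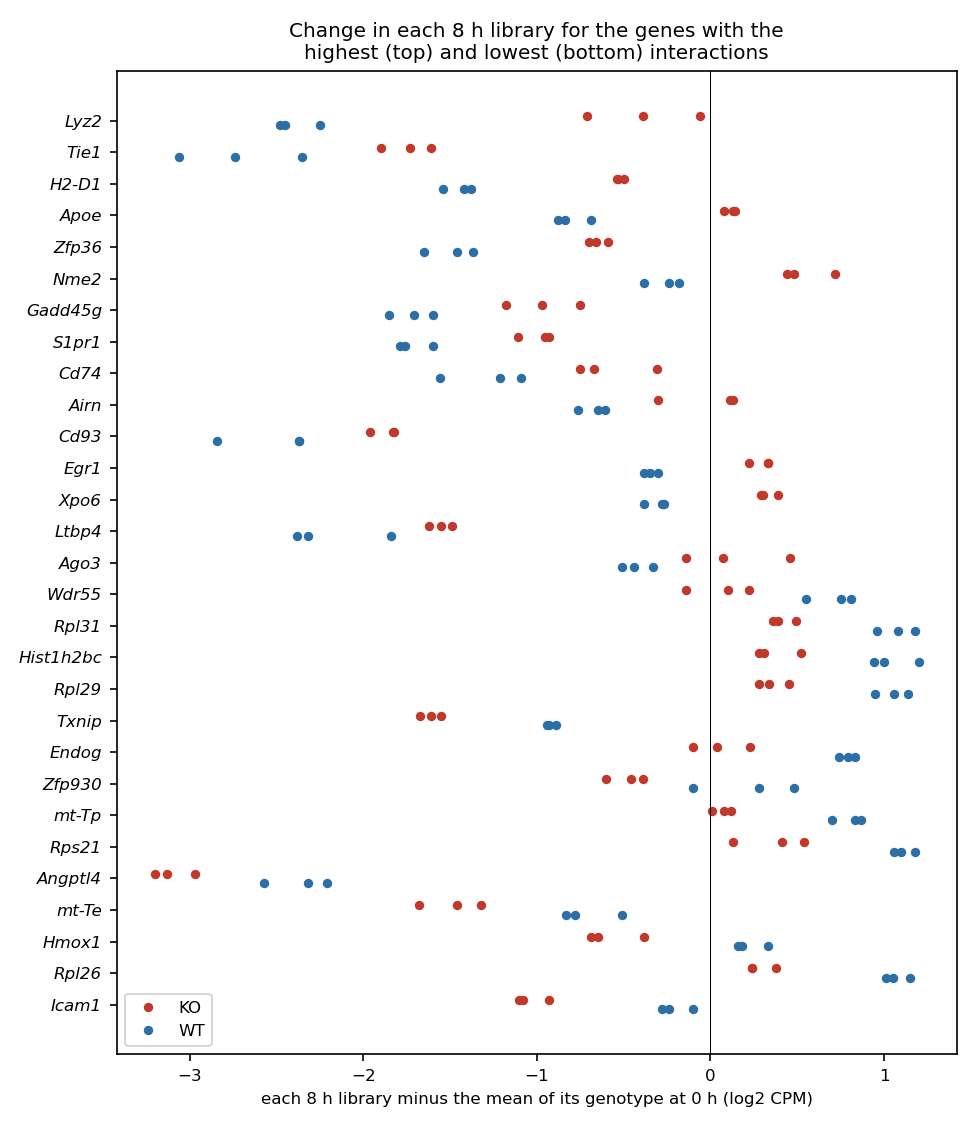
Log2 CPM of each library at 8 h minus the mean of its genotype at 0 h, for the 15 called genes with the highest interactions at a mean log2 CPM of at least 3 (top) and 14 of the 15 with the lowest at that level (bottom); red points are KO and blue points WT libraries. In every gene the 3 KO points and the 3 WT points are apart, and from Lyz2 to Ago3 KO lies to the right, from Wdr55 to Icam1 to the left. The genes were called on these same libraries, which favours such separation.

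At the low end, Icam1, the adhesion molecule of activated endothelium and other cells (ENSMUSG00000037405, chromosome 9, 21015985 to 21028817, forward strand), started higher in KO and lost more. KO libraries measured 16.9, 17.1 and 18.9 CPM at 8 h and 33.1, 34.2 and 42.2 CPM at 0 h. WT libraries measured 7.99, 7.04 and 7.26 CPM at 8 h and 9.15, 8.17 and 8.47 CPM at 0 h. KO stayed above WT throughout, at 2.09 ± 0.08 (SE, adjusted p = 6.8e-31) at baseline and 1.25 ± 0.10 (adjusted p = 6.71e-17) at 8 h, for an interaction of -0.84 ± 0.13 (adjusted p = 1.5e-05). The KO level was 48.3% of baseline at 8 h, while the WT course of -0.21 was not called (adjusted p = 0.0924). An antisense gene, Gm47079, overlaps Icam1. Of 23 tested NF-kappaB and inflammatory genes 3 were called lower and none higher, against 3.33% and 1.87% of all tested genes, with a median of -0.06. Nfkbia, the inhibitor of NF-kappaB, was another of them, at -0.64 ± 0.18 (adjusted p = 0.0223). It lost its call when 6 of the 12 libraries were each left out, and with library size alone or ribosomal protein scaling. Its adjusted p ran from 0.00923 to 0.159 over all alternatives.

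Hmox1, which encodes haem oxygenase 1, an inducible stress enzyme (ENSMUSG00000005413, chromosome 8, 75093621 to 75100589, forward strand), fell in KO and rose in WT. KO libraries measured 20.8, 25.1 and 20.3 CPM at 8 h and 32.2, 33.7 and 32.3 CPM at 0 h, and WT libraries 38.2, 38.7 and 43 CPM at 8 h and 35.4, 36.9 and 30.8 CPM at 0 h. The genotypes overlapped at 0 h (-0.07 ± 0.07, SE, adjusted p = 0.457) and at 8 h every KO library was below every WT library (-0.86 ± 0.07, adjusted p = 1.27e-15). At 4 h KO was still at 31.8 CPM while WT was at 43.8 CPM. The interaction was -0.79 ± 0.10 (SE, adjusted p = 5.26e-08).

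Txnip, the thioredoxin-interacting protein that responds to glucose, and Angptl4, a lipoprotein lipase inhibitor, fell in both genotypes and further in KO. Txnip measured 90, 82.6 and 86.4 CPM at 8 h and 278, 259 and 254 CPM at 0 h in KO libraries, against 99.9, 100 and 103 CPM at 8 h and 199, 181 and 194 CPM at 0 h in WT libraries. KO was the higher genotype at 0 h and the lower at 8 h, with no overlap at either time and an interaction of -0.69 ± 0.07 (SE, adjusted p = 7.13e-12); an antisense gene, Gm15441, overlaps it. Angptl4 kept 11.2% of its baseline in KO and 19% in WT from nearly equal starts of 21 ± 0.793 and 19.7 ± 0.998 CPM (SD, n = 3 each), for an interaction of -0.76 ± 0.18 (SE, adjusted p = 0.00398). Angptl4 was not called with ribosomal protein scaling, and its adjusted p over the alternatives ran from 0.00201 to 0.0597.

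In 3 lists of stress response genes all calls were lower with TMM, where 3.33% of all tested genes were called lower. Of 24 genes of the unfolded protein and integrated stress responses 2 were called, Chac1, a glutathione-degrading enzyme induced by ATF4, and Ddit3, which encodes CHOP. Chac1 measured 1.33, 1.49 and 1.68 CPM at 8 h and 10, 9.12 and 9.52 CPM at 0 h in KO libraries, against 3.32, 2.69 and 1.99 CPM at 8 h and 4.22, 6.79 and 5.55 CPM at 0 h in WT libraries. It was higher in KO at 0 h and lower at 8 h, without overlap, and its interaction was -1.61 ± 0.27 (SE, adjusted p = 4.64e-05). Ddit3, at -0.68 ± 0.18 (adjusted p = 0.0142), lost its call without KO replicate 1 at 8 h, WT replicate 1 at 0 h or WT replicate 3 at 8 h, and with library size alone or ribosomal protein scaling (adjusted p from 8.13e-04 to 0.116). Of 18 genes of the p53 response 3 were called lower, led by the death receptor gene Fas at -0.55 ± 0.13 (adjusted p = 0.00356) and Gadd45a at -0.45 ± 0.10 (adjusted p = 0.0017). Of 20 heat shock genes the chaperone genes Bag3 and Dnajb4 were called, at -0.31 ± 0.07 (adjusted p = 0.00126) and -0.30 ± 0.07 (adjusted p = 0.00504). With ribosomal protein scaling Fas, Gadd45a, Bag3 and Dnajb4 kept their sign and lost their calls, as Bag3 and Dnajb4 did with library size alone. Over all alternatives of the 4 genes the adjusted p ran from 4.91e-04 to 0.872. The medians of the unfolded protein, p53 and heat shock lists turned to 0.17, 0.18 and 0.18 with ribosomal protein scaling. Calls there were 5 higher and 1 lower, 2 and 0, and 4 and 0, so the direction of these lists depends on the scaling.

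Cytosolic ribosomal protein genes, which are short and known for long-lived transcripts, gained more in WT. Of 79 tested genes 34 were called lower in the interaction and none higher, against 3.33% and 1.87% of all tested genes, with a median of -0.30 beside -0.02. Their median change was 0.37 in KO against 0.66 in WT, and their median baseline difference 0.38. The summed level ran over 0, 4 and 8 h through means of 10000, 11600 and 13100 CPM in KO and 7940, 9050 and 12600 CPM in WT. In these TMM-scaled sums KO was above WT at 0 and 4 h. At 8 h the libraries overlapped, at 12700 to 13800 CPM in KO and 11900 to 13400 CPM in WT. As plain shares of the counts the genotypes overlapped at 0 h too, at 0.941 to 1.05% in KO and 0.862 to 0.963% in WT. Library size alone gave a median of -0.20 with 16 lower calls, and scaling by these genes themselves set the median to -0.02 with 2 higher and 11 lower calls.

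Rpl26 (ENSMUSG00000060938, chromosome 11, 68901583 to 68906989, forward strand) was the lowest of those named. KO libraries measured 108, 108 and 120 CPM at 8 h and 89.5, 87.8 and 99 CPM at 0 h, and WT libraries 128, 119 and 116 CPM at 8 h and 56.9, 55 and 60.8 CPM at 0 h. WT was lower at 0 h without overlap, and the genotypes overlapped at 8 h. The level reached 122% of baseline in KO and 210% in WT, for an interaction of -0.79 ± 0.08 (SE, adjusted p = 2.89e-09) that was called under all 5 scalings. Rpl31 and Rpl29 had interactions of -0.67 ± 0.10 (adjusted p = 4.95e-05) and -0.69 ± 0.14 (adjusted p = 0.0114). Rps21, at -0.75 ± 0.18 (adjusted p = 0.0357), lost its call when 8 of the 12 libraries were each left out, in the fit of the 12 libraries only and without a filter on low counts, with adjusted p from 0.0014 to 0.0895. Ribosomal protein genes have many processed copies in the genome, so reads may be split among them.

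Lists of the contractile and metabolic machinery gave calls in the lower direction only, where 3.33% of all tested genes were called lower. Of 29 adult sarcomere genes 12 were called lower and none higher (median -0.11), of the 12 cardiomyocyte markers 5 and none (median -0.23, all 5 being also among the 12 sarcomere genes), of 76 nuclear oxidative phosphorylation genes 10 and none (median -0.12), of 31 proteasome genes 10 and none (median -0.16), of 29 fatty acid oxidation genes 8 and none (median -0.12), of 41 translation factor genes 6 and none (median -0.14) and of 25 glycolysis genes 4 and none (median 0.03). The cardiac troponin T gene Tnnt2 measured 6390, 6790 and 6100 CPM at 8 h and 4710, 4750 and 4970 CPM at 0 h in KO libraries, against 5690, 5280 and 5820 CPM at 8 h and 2950, 3290 and 3080 CPM at 0 h in WT libraries. KO lay above WT at both times, and the gap narrowed, at an interaction of -0.43 ± 0.07 (SE, adjusted p = 3.09e-04). The translation initiation gene Eif1 had an interaction of -0.50 ± 0.06 (adjusted p = 5.11e-08), the glycolytic enzyme gene Tpi1 -0.39 ± 0.06 (adjusted p = 2.48e-05) and the complex I subunit gene Ndufa2 -0.49 ± 0.10 (adjusted p = 0.00524). All 4 kept their sign with ribosomal protein scaling and lost their calls there (adjusted p from 0.0574 to 0.365, and down to 3.59e-11 over all alternatives), as Tnnt2 did without a filter on low counts. Under that scaling the medians of the sarcomere, cardiomyocyte, oxidative phosphorylation, proteasome, fatty acid oxidation and translation factor lists turned to 0.17, 0.04, 0.15, 0.12, 0.16 and 0.14, with no gene of these lists called lower, so the direction of these lists depends on the scaling.

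**Figure D5:**
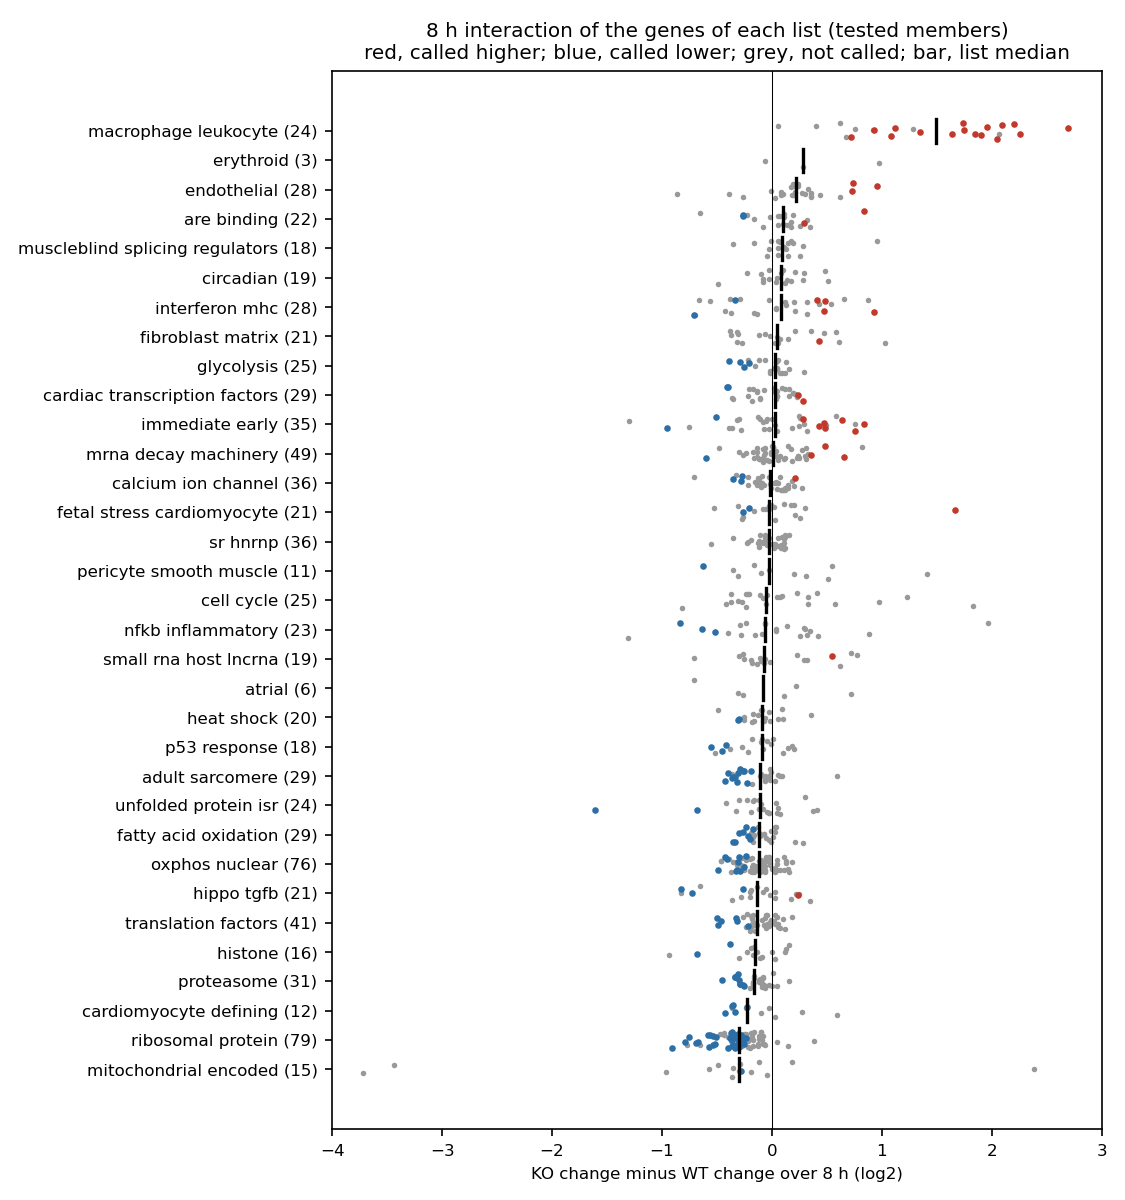
Interaction (KO change minus WT change over 8 h, log2) of each tested gene of the 33 lists with at least 3 tested members, ordered by list median; the number of tested genes follows each name, red points are called higher, blue points lower, grey points not called, and bars are list medians. Most macrophage points lie far to the right of 0, with a median of 1.49, and most ribosomal protein points lie below 0, with a median of -0.30.

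Mitochondrially encoded transcripts are made by a separate polymerase. Of 15 tested genes of the list 1 was called, where 5.2% of all tested genes were called in either direction. That gene was the small ribosomal RNA gene mt-Rnr1, at -0.28 ± 0.07 (SE, adjusted p = 0.00598). It rose in both genotypes, to 266% of baseline in KO and 323% in WT, and lost its call under ribosomal protein scaling or library size alone (adjusted p from 2.69e-04 to 0.998). The mitochondrial transfer RNA genes mt-Te and mt-Tp, which the list does not hold, had interactions of -0.79 ± 0.20 (adjusted p = 0.0432) and -0.73 ± 0.18 (adjusted p = 0.042). They were not called when 8 and 9 of the 12 libraries were each left out, and their adjusted p reached 0.107 and 0.0975 (lowest 0.00267 and 0.00425).

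The remaining low genes were Zfp930, a zinc finger gene, at -0.72 ± 0.18 (SE, adjusted p = 0.00854), Endog, a mitochondrial nuclease gene, at -0.72 ± 0.14 (adjusted p = 0.00143), the histone gene Hist1h2bc at -0.68 ± 0.15 (adjusted p = 0.0075) and Wdr55, a nucleolar protein gene, at -0.66 ± 0.15 (adjusted p = 0.00344). Endog measured 20.4 ± 2.35 CPM at 8 h and 19.6 ± 2.23 CPM at 0 h in KO libraries, and 15.8 ± 0.477 CPM at 8 h and 9.29 ± 2.18 CPM at 0 h in WT libraries (SD, n = 3 each). It rose in WT and was not called in the KO course. Zfp930 and Wdr55 were not called with ribosomal protein scaling, nor Zfp930 without WT replicate 1 at 8 h (adjusted p over all alternatives up to 0.0586 and 0.0734, from 3.31e-04 and 0.00148). Endog overlaps Spout1, Rpl31 overlaps Tbc1d8 and Wdr55 overlaps Dnd1, in each case on the opposite strand, and histone genes have near copies.

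Genes of proteins that carry out or steer mRNA decay gave calls in both directions, where 5.2% of all tested genes were called in either. Of 49 tested genes of the deadenylation, decapping, exosome and surveillance machinery 3 were called higher and 1 lower, with a median of 0.01. Pan3, a subunit of the PAN deadenylase, held 96.5% of its baseline in KO and 61.1% in WT, at an interaction of 0.66 ± 0.16 (SE, adjusted p = 0.00757), and lost its call without KO replicate 1 at 8 h (adjusted p from 1.62e-04 to 0.0618 over all alternatives). Of 22 AU-rich element binding and related genes 2 were called higher, Zfp36 and the Roquin gene Rc3h1, and 2 lower, the cold shock domain genes Ybx1 and Ybx3, with a median of 0.10. Rc3h1, at 0.29 ± 0.09 (adjusted p = 0.044), lost its call when 10 of the 12 libraries were each left out (adjusted p from 4.38e-04 to 0.155 over all alternatives). Ybx1 and Ybx3, both at -0.26, turned to 0.02 with ribosomal protein scaling. With TMM none of 18 muscleblind, CELF and RBFOX family and related splicing regulators was called in either direction (median 0.09). The same held for 36 SR and hnRNP genes (median -0.03). Ribosomal protein scaling called 12 of the 18 and 14 of the 36 higher and none lower (medians 0.36 and 0.24), where 2915 of 13230 tested genes were called higher. Library size alone called 3 of the 18 higher and none of the 36, so these results depend on the scaling.

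Transcript length, which the comparison did not use, differed between the called groups. Level differed as well, at a median log2 CPM of 4.24 among genes called higher, 5.46 among those called lower and 3 among the other genes. The part of level in these calls was not tested. The median transcript was 4276 bases long among genes called higher, 1587 among those called lower and 3046 among all 11987 tested genes with an annotated 3′ untranslated region. With the genes split by transcript length into 4 groups of nearly equal size, the median interaction from the shortest to the longest was -0.10, -0.04, -0.01 and 0.06, and the share of genes called lower was 8.41, 3.23, 1.5 and 1%. With the ribosomal protein, oxidative phosphorylation, sarcomere, cardiomyocyte and macrophage lists left out the medians were -0.09, -0.04, -0.01 and 0.06. The median 3′ untranslated region was 1387 bases among higher, 439 among lower and 1011 among all genes. Copies of TGCT, CGCT and GCTT stood at medians of 1.2, 1.14 and 1.14 per 100 bases in these groups, and the AU-rich letters TATTTAT, searched on the sense strand, occurred in 33.1, 15.8 and 28.1% of the regions, which differ in length. Whether length as such, or RNA quality that acts through it, took part in the interactions was not tested.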

How the data were processed

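RNA sequencing of total RNA (BGI DNBseq, per the labels' protocols) gave 17 libraries, grouped by their labels. The authors deposited raw counts for 55487 genes; the submitters' processing notes name GRCm38 and mm10 as builds and STAR, featureCounts, DESeq2 and limma as tools, with versions, strand use and multi-mapping not given in the sources used here. A second deposited table, of ratios, was not used.

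The tests used edgeR 4.0.16 (R 4.3.3): filterByExpr kept 13230 genes holding 99.9% of the counts, libraries were scaled by TMM, and a robust quasi-likelihood model of all 17 libraries in 6 groups gave a biological coefficient of variation of 5.28%. The interaction, both time courses and the genotype differences were contrasts of that model, tested by F tests with Benjamini-Hochberg adjustment over the tested genes and calls at 0.05. SE is the log2 value divided by the square root of F. CPM are TMM-scaled; library changes used log2 CPM with a prior count of 2. The model was tested on simulated counts.

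The 15 highest and 15 lowest called genes with a mean log2 CPM of at least 3 were named (predicted, clone and Rik names left out), with Mbnl1, Mbnl2 and up to 2 called members at each end of 34 gene lists, 82 genes in all; 1 further gene, at the low end, is not reported here. Members and lists were chosen with earlier results of these data known, so lists are described by counts and medians only. GENCODE M21 annotated 55226 of the identifiers (99.5%).

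Alternatives were library size alone, RLE factors, scaling by ribosomal protein counts, TMM without mitochondrial genes, no filter, a CPM of 1 in 3 libraries, the 12 libraries only, a replicate block, DESeq2 1.42.0 and leaving out each of the 12 libraries. Over 18 pairs of libraries with equal replicate numbers deviations from group means had correlations of -0.0469 to 0.0382, and the numbers were therefore not treated as pairing the samples. Over 16 pairs within groups the chi-square per gene was 2.81 to 14.7, so no library was a copy of another. The highest values, 14.7 and 10.4, were those of WT replicate 1 at 0 h against replicates 3 and 2.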

Additional observations from a re-analysis of the deposited data

Results flagged for a closer look

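The test of the difference between the genotypes' 8 h changes itself marked 688 genes. At a mean log2 CPM of at least 3, 29 of them from the ends of the ranking are given here. Above 0 these were Lyz2 (2.05), Tie1 (0.96), H2-D1 (0.93), Apoe (0.92), Zfp36 (0.84), Nme2 (0.82), Gadd45g (0.76), S1pr1 (0.73), Cd74 (0.72), Airn (0.68), Cd93 (0.64), Egr1 (0.64), Xpo6 (0.63), Ltbp4 (0.61) and Ago3 (0.59), as the log2 change in KO minus that in WT. Below 0 they were Icam1 (-0.84), mt-Te (-0.79), Hmox1 (-0.79), Rpl26 (-0.79), Angptl4 (-0.76), Rps21 (-0.75), mt-Tp (-0.73), Zfp930 (-0.72), Endog (-0.72), Txnip (-0.69), Rpl29 (-0.69), Hist1h2bc (-0.68), Rpl31 (-0.67) and Wdr55 (-0.66). Each group held 3 libraries, so no single library was tested as an outlier.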

How the results depend on the processing

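The split of calls by direction depended on the scaling. Against 688 calls (248 higher, 440 lower) with TMM, ribosomal protein scaling gave 2959 (2915 and 44), library size alone 696 (564 and 132), TMM without mitochondrial genes 772 (212 and 560) and RLE factors 691 (254 and 437). Without a filter there were 412 higher and 260 lower calls among 29044 genes, a CPM of 1 in 3 libraries gave 255 and 440, and the 12 libraries alone 235 and 408. DESeq2 called 147 higher and 356 lower and gave no adjusted p for 5644 genes. At an unadjusted p under 0.05 the count was 2457. Leaving out each of the 12 libraries in turn gave 423 to 817 calls, 141 to 281 higher and 280 to 536 lower. The lowest totals came without KO replicate 2 at 8 h (423), WT replicate 1 at 8 h (437) and KO replicate 3 at 0 h (445), and fewer higher calls also without WT replicate 2 (141) or 3 (159) at 0 h. The highest total (817) came without WT replicate 1 at 0 h. Of the calls, 88 higher and 188 lower ones were made in each of the 12 fits. The cause of these shifts was not tested.

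With ribosomal protein scaling the interactions of Ybx1, Ybx3, Ankrd1, Acta1 and Hrc changed sign, to 0.02, 0.02, 0.02, 0.06 and 0.00, with no call. Over all named genes and alternatives, 242 values kept their sign and lost their call, and 2 gained one. With the replicate block there were 696 calls (241 higher, 455 lower), and mt-Te (adjusted p = 0.0782), mt-Tp (0.0758), Neat1 (0.0759) and Prox1 (0.05) lost theirs; no other named gene did.

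With 3 libraries a group and at most 17971617 counts each, precision is limited for genes below a mean log2 CPM of 3, where all but 1 of the 51 higher differences of at least 2-fold lay.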

Other observations

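Differences of at least 2-fold lay mostly among weakly expressed genes. They numbered 51 higher (0.385% of tested genes) and 13 lower (0.0983%), of which 1 in each direction reached a mean log2 CPM of 3, Lyz2 being the higher one, and 14 of the 51 were in the macrophage list. Among the others, named here after their values were seen, were genes known from tissue macrophages. Stab1, a scavenger receptor gene, had an interaction of 1.92 ± 0.23 (SE, edgeR adjusted p = 1.02e-08), with changes of -1.31 in KO and -3.23 in WT. Lyve1, a hyaluronan receptor of lymphatic vessels and resident macrophages, had 2.15 ± 0.40 (adjusted p = 2.78e-04). Cybb, the phagocyte oxidase gene, had 1.38 ± 0.27 (adjusted p = 9.97e-04), with a baseline difference of -0.02. In the lower direction the matrix protease gene Adamts4 had -1.78 ± 0.37 (adjusted p = 1.12e-03) and the endothelial factor gene Sox7 -1.36 ± 0.39 (adjusted p = 0.025).

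In the other lists, 5.2% being the share of all tested genes called in either direction, the calls were as follows. Of 36 calcium and ion channel genes 1 was called higher, the L-type channel gene Cacna1c at 0.21, and 3 lower, among them the potassium channel gene Kcnk3 at -0.35. Cacna1c was no longer called by TMM without mitochondrial genes, or in 8 of the 12 fits that each left out 1 library. Its adjusted p ran from 2.38e-04 to 0.191 over all alternatives. Kcnk3 was not called under ribosomal protein scaling (-0.08, adjusted p = 0.611), nor when libraries were scaled by their size only (-0.25, adjusted p = 0.0537). Of 29 cardiac transcription factor genes 2 were called in each direction, Prox1 (0.28) and Tead1 (0.24) higher and Hand2 (-0.41) and Irx3 (-0.40) lower. Prox1, Tead1, Hand2 and Irx3 lost their calls when 9, 4, 3 and 3 of the 12 libraries were each left out. Hand2 and Irx3 also lost them with library size alone and ribosomal protein scaling, and Prox1 and Irx3 with DESeq2. Over all alternatives the adjusted p of these genes ran from 1.64e-04 to 0.514. Of 21 Hippo and TGF-beta genes 1 was called higher and 3 lower, the last including Bambi at -0.83, a decoy receptor that fell in KO to 55.6% of baseline. Of 21 fetal and stress genes 1 was called higher, Dab2 at 1.67, an endocytic adaptor also expressed by macrophages, and 2 lower. Of 16 histone genes 2 were called lower, and of 19 small RNA host and long noncoding genes 1 was called higher, Neat1 at 0.55. Neat1 lost its call when 9 of the 12 libraries were each left out and in the fit of the 12 libraries only (adjusted p from 1.26e-06 to 0.0993 over all alternatives). Among 25 cell cycle, 19 circadian, 6 atrial and 3 erythroid genes and 1 Schwann cell gene none was called with TMM. With ribosomal protein scaling 7 cell cycle genes, 10 circadian genes and 1 atrial gene were called higher. Library size alone called 1 cell cycle gene and 2 circadian genes higher. Reads assigned to Esr1, the gene of estrogen receptor alpha, stood apart in number, which was seen before the gene was named: KO libraries held 39139, 36443 and 38516 raw counts at 8 h and 46057, 39273 and 41654 at 0 h, against 7, 8 and 57 at 8 h and 3, 2 and 1 at 0 h in WT libraries. Counts per gene do not show whether these reads came from the gene's own locus, and their source was not tested. The interaction of Esr1, at -3.79 ± 1.07, was not called (adjusted p = 0.0721), and the WT value at 8 h rests largely on 1 library.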
